A study of Mus musculus with 2 samples.

Results

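The genes described here are the WNT ligands, their receptors and the secreted proteins and response genes that tune WNT signalling, measured in the ureter of mouse embryos. A probe was taken where its gene name on the array is a Wnt, Fzd, Rspo, Sfrp or Dkk gene by number. Probes of 19 further genes named by hand (Frzb, Wif1, Lrp5, Lrp6, Ror1, Ror2, Lgr4, Lgr5, Lgr6, Axin2, Lef1, Tcf7, Nkd1, Nkd2, Notum, Znrf3, Rnf43, Sp5 and Apcdd1) were added. This gave 72 probes of 60 genes among 39429 probes on the array. Whole ureters were dissected at embryonic stage E14.5, and 2 Agilent arrays each held 1 mutant and 1 control RNA in separate dyes. The mutant, called Smad4cKO, has the genotype Tbx18(cre/+);Smad4(fl/fl), and the control is Tbx18(+/+);Smad4(fl/+). All embryos are of the NMRI strain; array 1 compared a female pair and array 2 a male pair, with the dyes exchanged. Cre recombinase is made from the Tbx18 locus, so Smad4 is to be removed only where Tbx18 is or was active, which in the ureter is its mesenchyme. The controls carry 1 floxed Smad4 allele and no Cre, and the mutants carry Cre in 1 Tbx18 allele. Effects of that allele and of Smad4 loss cannot be told apart.

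WNT proteins are secreted lipid-modified ligands that bind Frizzled receptors together with LRP5 or LRP6. In the canonical branch this stabilises beta-catenin, which activates genes such as Axin2 with the TCF and LEF transcription factors. R-spondins bind LGR receptors and remove the ubiquitin ligases ZNRF3 and RNF43, which otherwise clear Frizzled receptors from the cell surface. WNT5A acts mostly without beta-catenin, through ROR receptors. In the developing ureter, WNT7B and WNT9B come from the epithelium and act through beta-catenin on the adjacent mesenchyme, where this signal is needed for smooth muscle to form. SMAD4 is the shared partner of the SMADs that carry BMP and TGFB signals.

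Every ratio below is the channel labelled Smad4cKO over the channel labelled control on a log2 scale, so a negative value means a dimmer probe in the channel labelled Smad4cKO. The direction rests on the dye labels and is not settled. By those labels, the authors' deposited table gives control over Smad4cKO, although its titles put Smad4cKO in front, and a reader going by the titles would reverse every sign. Rspo1, for example, has signed folds of 3.39 and 2.40 in the authors' deposited table, and Myh11 has -4.66 and -7.30. The targeted gene Smad4 gave log2 ratios of -0.69 on array 1 and -0.14 on array 2 with the probe that stands for it. A second Smad4 probe gave -0.31 and -0.49; whether these probes lie in the deleted part is not stated, so they may check nothing. Tbx18 gave 0.07 and 0.81, and the smooth muscle myosin gene Myh11 gave 2.08 and 2.65. Should the dyes have been labelled the wrong way round on each array, every "brighter" below would become "dimmer" and the reverse, with sizes and tests unchanged. Between 68.3% and 70.3% of spots were well above background in each channel, and 0 were saturated. The 12 ureteric mesenchyme markers, the 8 smooth muscle markers and the 14 urothelial markers listed for a check of the tissue were all bright enough to test. Pooling of embryos is not stated, so errors cover these 2 arrays and may be technical. In whole ureters, fewer cells of a type and less RNA per cell cannot be told apart.

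Of the 60 member genes, 49 were bright enough to test, meaning well above background for 1 labelled group in each array, the group being the same. The other 11 were Wnt2, Wnt2b, Wnt3, Wnt3a, Wnt7a, Wnt8a, Wnt8b, Wnt10b, Rspo4, Lgr6 and Dkk4. Their 12 probes had processed signals (background-subtracted and dye-normalised by the scanner software, in arbitrary units) between 5.77 and 40.1, and 10 of them were well above background in none of the 4 channels. No level is given for these genes. Ratios below were computed from mean signals with another correction, so they can differ from the quotient of the processed signals.

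Among the 49 tested members, Rspo1 and Wnt5a were dimmer in the channel labelled Smad4cKO by at least 1.5-fold on both arrays, and Sfrp2 was brighter by as much; 0 members were past it in opposite directions. In the background of 21238 tested genes, 0.523% were dimmer, 0.49% brighter and 1.25% opposite by this rule, which is a count with no test. The 3 genes act at different points: Rspo1 encodes an amplifier of canonical signalling, Wnt5a a ligand of the non-canonical branch, and Sfrp2 a secreted protein that binds WNT ligands. With limma, which tests the mean of both arrays against 0 and adjusts p over all 21238 genes, 0 of 49 members passed an adjusted p of 0.05. The background of that test was 0.00471% dimmer and 0% brighter. At an unadjusted p under 0.05 limma had 5 members dimmer (Rspo1, Wnt5a, Rspo3, Sfrp1 and Sfrp4) and 2 brighter (Sfrp2 and Wif1), against a background of 2.97% and 2.14%. Limma with an intensity trend and robust variance called 4 members, all dimmer (Rspo1, Wnt5a, Rspo3 and Sfrp1), and 705 of all tested genes (3.32%). From the scanner software's processed signals limma called Rspo1 (adjusted p = 0.00129) and Sfrp2 (adjusted p = 0.0250), and 306 of all tested genes (1.44%). Rspo1 was the 1 member called with normexp offset 10, where 0.311% of all tested genes were called, and from the authors' deposited table, where 0.702% were.

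**Figure D1:**
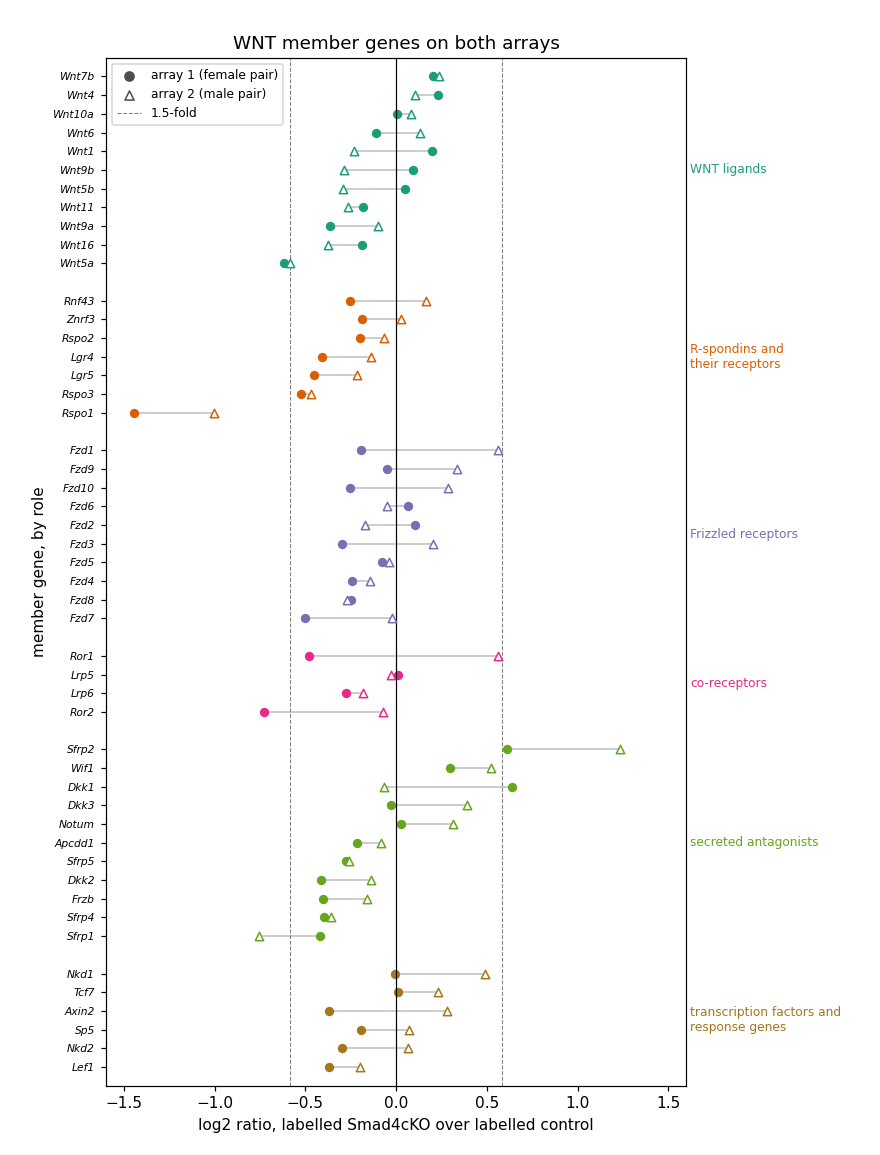
Log2 ratio (horizontal axis) of the 49 tested member genes, grouped by role, with a filled circle for array 1 (female pair), an open triangle for array 2 (male pair) and dashed lines at 1.5-fold. Rspo1 lies farthest to the left at -1.44 and -1.0, Sfrp2 has the largest positive mean, from 0.61 and 1.23, and 31 of the 49 genes have a mean within 0.25 of 0.

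The R-spondin branch held the member with the largest ratio. Rspo1 had processed signals of 146.8 in the channel labelled Smad4cKO and 498.8 in the labelled control on array 1, and of 164.8 and 397.7 on array 2. Both labelled Smad4cKO channels were below both control channels. How many of all tested genes separate in this way was not counted, and members with smaller ratios, such as Wnt7b and Lef1, did so too. With 2 channels in each labelled group, this order carries no weight of its own. The log2 ratios of Rspo1 were -1.44 and -1.0, with a mean of -1.22 (SE 0.16, n = 2, limma adjusted p = 0.121), or 2.33-fold dimmer. The scanner software's own log2 ratios, as deposited, were -1.76 and -1.27 and differ from those above, which come from another processing. Their deposited errors were 0.27 and 0.24 in log2 units, and their deposited p-values were 2.86e-11 and 1.54e-07. These describe 1 spot on each array and not the spread between embryos. Rspo3, for another R-spondin, had processed signals of 3788 against 5538 on array 1 and 4068 against 5556 on array 2. The labelled groups did not overlap, with the same limit. Its log2 ratios of -0.52 and -0.47 were close to each other (mean -0.49, SE 0.13, n = 2, limma adjusted p = 0.484), and it passed neither the 1.5-fold rule nor limma. Rspo2 gave -0.20 and -0.07 from a dim probe, with processed signals between 58.8 and 75.0.

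The receptors of R-spondins gave ratios of the same sign as the ligands. Lgr5 gave -0.45 and -0.22, from signals of 146.7 against 219.6 on array 1 and 223.5 against 269.0 on array 2. Lgr4 gave -0.41 and -0.14. Neither was past 1.5-fold on either array, and their limma adjusted p was 1. The ubiquitin ligase genes that R-spondins act on changed sign between the arrays, Rnf43 with -0.26 and 0.17 and Znrf3 with -0.19 and 0.03. From processed signals Znrf3 did not change sign (-0.07 and -0.04). Over the 7 tested genes of this branch, 5 were dimmer on both arrays and 0 brighter, and the median was -0.27, against 0.0047 over all tested genes. Of all tested genes, 19.8% were dimmer and 19.9% brighter on both arrays.

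The probes behind the ratios are 60-base oligos, given here by their leading 30 bases in lower case so that the measured transcripts can be identified. The Rspo1 probe lies at chr4:124686270-124686329 on the plus strand and the Rspo3 probe at chr10:29172930-29172989 on the minus strand. The Wnt5a probe lies at chr14:29336664-29336723 and the Sfrp2 probe at chr3:83577864-83577923, both on the plus strand. Positions are on build mm9, as the scanner files give them, and which exon each probe matches was not analysed here.
Rspo1 probe: ccgtggtacacgtcacggatgacctgactt
Rspo3 probe: ggatactactttctaacaaggtgtatctag
Wnt5a probe: cctaacccagaggttaccagcctggttttg
Sfrp2 probe: tcggcatctaagtcttcaaacatttcgttg

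Of the 19 WNT ligand genes, 11 were tested, and Wnt5a had the largest ratio among them. Wnt5a had processed signals of 631.3 in the channel labelled Smad4cKO and 1014 in the labelled control on array 1, and of 664.9 and 993.6 on array 2. The labelled groups did not overlap. The share of all tested genes that separate was not counted, so the separation carries no weight of its own. The log2 ratios of Wnt5a, -0.61 and -0.59, were almost the same on both arrays (mean -0.60, SE 0.13, n = 2, limma adjusted p = 0.303). From processed signals, from the authors' deposited table and with median centring, Wnt5a no longer passed the 1.5-fold rule and Rspo1 was the 1 dimmer member left.

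The epithelial ligand Wnt7b lay on the other side of 0. Its signals were 1079 against 892.1 on array 1 and 1179 against 1020 on array 2, so its ratios were 0.20 and 0.24, with a mean of 0.22 (SE 0.13, n = 2) and a limma adjusted p of 1. Wnt9b, the other epithelial ligand, had 583.2 against 541.2 on array 1 and 596.0 against 739.0 on array 2. Its ratio changed sign, from 0.09 to -0.28. Wnt4, a ligand of kidney tubule and gonad formation, gave 0.23 and 0.10. Wnt11, expressed at ureteric bud tips in the kidney, gave -0.18 and -0.27. Wnt16 gave -0.19 and -0.37, and a second Wnt16 probe gave -0.19 and -0.23. Wnt9a gave -0.36 and -0.10, and Wnt10a 0.01 and 0.08. Wnt1, Wnt5b and Wnt6 changed sign between the arrays, within 0.30 of 0 on each. Apart from Wnt5a, no tested ligand reached 1.5-fold on either array.

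WNT ligand genes often lie beside each other in the genome, and neighbours can be set side by side. Wnt6 and Wnt10a, whose probes are 19172 bases apart on chromosome 1 (mm9), gave means of 0.01 and 0.04. In each of the 3 other close pairs (Wnt1 with Wnt10b, Wnt9a with Wnt3a, and Wnt9b with Wnt3) 1 gene was tested and the other was not bright enough.

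All 10 Frizzled receptor genes were tested and 0 passed either rule. Fzd1, a receptor gene known from the ureteric mesenchyme, had signals of 17056 against 19751 on array 1 and 22836 against 15407 on array 2. Its ratios of -0.19 and 0.56 had opposite signs, and the difference of 0.75 between the arrays was the largest among Frizzled genes. Fzd8 had 958.4 against 1159 and 1174 against 1363, with ratios of -0.25 and -0.27, so it was slightly dimmer on each array. Fzd4 had 1161 against 1383 and 1397 against 1516, with ratios of -0.24 and -0.14. The limma adjusted p of both was 1. Fzd7 gave -0.50 on array 1 and -0.02 on array 2, and its second probe gave -0.51 and 0.23. Fzd2, Fzd3, Fzd6, Fzd9 and Fzd10 changed sign, and Fzd5 gave -0.08 and -0.04 from a dim probe. Fzd2 gave 0.10 and -0.17 with its brighter probe, while its second probe gave the reverse signs (-0.19 and 0.13). The median over the Frizzled genes was -0.04.

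Among the co-receptors, the ROR genes had the largest gaps between the arrays. Ror2, whose product is a receptor for WNT5A, had signals of 3599 in the channel labelled Smad4cKO and 6094 in the labelled control on array 1. On array 2 they were 5268 and 5385, so the ratio of -0.73 on array 1 was followed by -0.07 on array 2, with a mean of -0.40 (SE 0.19, n = 2) and a limma adjusted p of 1. Sex and dye cannot be told apart here. Ror1 gave -0.48 and 0.56, the largest gap of any member, while its second, dimmer probe gave -0.06 and 0.12. Lrp6, for the canonical co-receptor, had 6187 against 7444 and 7121 against 8150. Its ratios were -0.27 and -0.18, and its second probe gave -0.21 and 0.0045. Lrp5 gave 0.01 and -0.03.

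The secreted antagonists, with which the membrane-bound Apcdd1 is grouped here, had ratios on both sides of 0. Sfrp2 had processed signals of 43278 in the channel labelled Smad4cKO and 26376 in the labelled control on array 1, and of 42039 and 19044 on array 2. Both labelled Smad4cKO channels were above both control channels. The share of all tested genes that separate was not counted, so this order carries no weight of its own. The log2 ratios of Sfrp2 were 0.61 and 1.23 (mean 0.92, SE 0.18, n = 2, limma adjusted p = 0.267), or 1.90-fold brighter. Wif1, whose product binds WNT ligands outside the cell, was the other antagonist with an unadjusted p under 0.05 on this side. It had signals of 336.5 against 247.6 on array 1 and 449.3 against 301.9 on array 2, and ratios of 0.30 and 0.52 (mean 0.41, SE 0.14, n = 2, limma adjusted p = 0.722).

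Other members of the same Sfrp family lay on the opposite side. Sfrp1 had signals of 6906 against 9377 on array 1 and 7328 against 12141 on array 2, and ratios of -0.42 and -0.75 (mean -0.59, SE 0.15, n = 2, limma adjusted p = 0.437). Sfrp4 had 2418 against 3145 and 3261 against 4233, and ratios of -0.40 and -0.36 (mean -0.38, SE 0.13, n = 2, limma adjusted p = 0.75). For Sfrp4 the labelled groups overlapped in raw level, since array 2 was brighter in both channels. Sfrp5 gave -0.27 and -0.26, and Frzb, a relative of this family, gave -0.40 and -0.16. So of the 5 tested SFRP-type genes (Sfrp1, Sfrp2, Sfrp4, Sfrp5 and Frzb), 4 were dimmer and 1 brighter on both arrays. The background was 19.8% dimmer and 19.9% brighter. The mean ratios of Sfrp1, Sfrp2 and Sfrp4 kept their signs under the 11 other ways of processing. Several of these ways cannot change the ratio of a gene with 1 probe.

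The Dickkopf genes were less even. Dkk1, whose product blocks LRP5 and LRP6, had signals of 2048 against 1330 on array 1 and of 1571 against 1565 on array 2. Its ratio was 0.64 in the female pair and -0.07 in the male pair. From processed signals the ratio on array 2 was 0.0057, so its sign there depends on the processing. Dkk2 gave -0.41 and -0.14, and Dkk3 gave -0.03 and 0.39. Notum, which encodes a secreted enzyme that inactivates WNT ligands, gave 0.03 and 0.31, and Apcdd1, for a membrane-bound inhibitor, gave -0.22 and -0.08. Over the 11 tested antagonists, Apcdd1 among them, 6 were dimmer and 3 brighter on both arrays, against 19.8% and 19.9% of all tested genes.

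**Figure D2:**
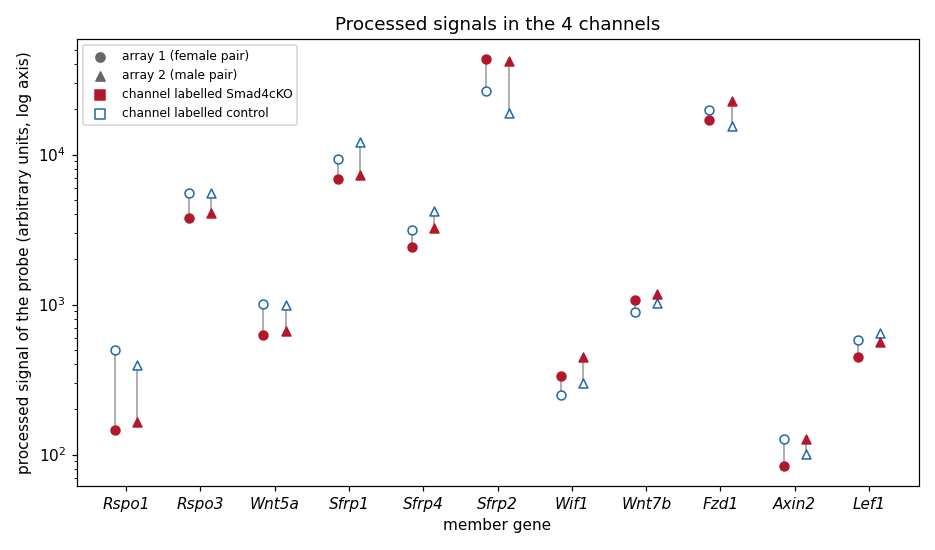
Processed signal (vertical log axis, arbitrary units) of 11 named member genes, with filled red symbols for the channel labelled Smad4cKO, open blue symbols for the labelled control, circles for array 1 and triangles for array 2, joined within an array. Signals can be compared within a gene and not between genes; for Rspo1 the red symbols (146.8 and 164.8) lie below the blue ones (498.8 and 397.7) on both arrays, and for Axin2 the order turns between the arrays.

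The response genes of canonical signalling showed no shared direction. Axin2, a negative regulator induced by beta-catenin and the usual readout of the canonical branch, had signals of 84.4 against 126.6 on array 1 and 127.8 against 100.1 on array 2. Its ratios of -0.37 and 0.28 had opposite signs (mean -0.05, SE 0.19, n = 2, limma adjusted p = 1), and its other probe was not bright enough to test. Lef1, a transcription factor and target of the pathway, had 445.3 against 582.5 and 560.0 against 644.0, so its ratios were -0.37 and -0.20, with a mean of -0.28 (SE 0.13, n = 2) and a limma adjusted p of 1. Tcf7 had 1491 against 1481 and 1813 against 1521 with its brighter probe. That probe gave 0.01 and 0.23 and the other -0.23 and 0.42. The feedback gene Nkd1 gave ratios of -0.0038 and 0.49, and a second probe gave 0.03 and 0.50. Nkd2 (-0.30 and 0.06) and Sp5 (-0.19 and 0.07) changed sign, but the second Nkd2 probe did not (-0.37 and -0.04). With 1 residual degree of freedom these values cannot show that the response genes did not differ.

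**Figure D3:**
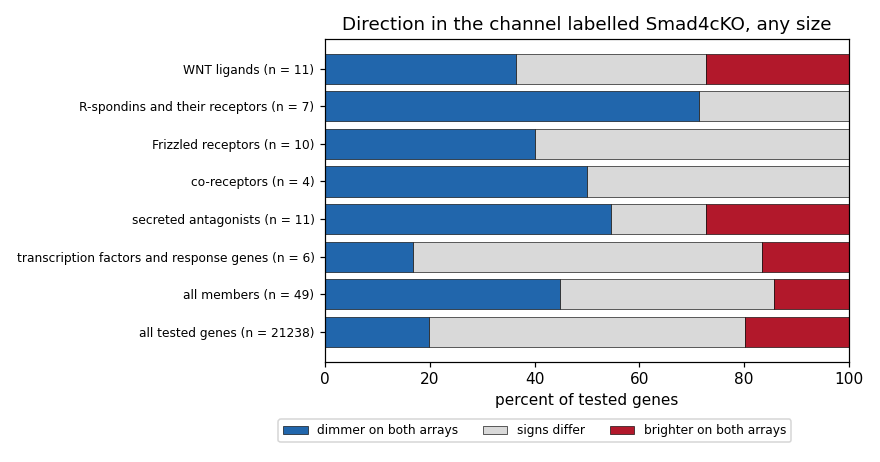
Percent of tested genes (horizontal axis) that were dimmer on both arrays (blue), brighter on both (red) or of differing sign (grey) in the channel labelled Smad4cKO, for each role, for all 49 members and for all 21238 tested genes. Members were dimmer on both arrays in 44.9% of cases and all tested genes in 19.8%.

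As a list, the members lay slightly below 0. Without regard to size, 22 of 49 were dimmer on both arrays (44.9%), against a background of 19.8%, and 7 were brighter (14.3%), against 19.9%. The signs differed for 20 members, against 60.3% of all tested genes. The median member ratio was -0.08 (-0.20 on array 1 and -0.07 on array 2), and that of all tested genes 0.0047. These counts describe the list; genes are not replicates and no test was made over it. The shares dimmer on both arrays were 45.5% among the 22 members at or above the median brightness of all genes and 15.05% among all such genes. On array 1, where red held the labelled control, 71.4% of members were below 0, against 48.4% of all genes, and on array 2 59.2% against 51.5%. Across the 49 members the ratios of the arrays correlated at 0.56 (Pearson), and at 0.30 without Rspo1 and Sfrp2, with 47 genes left. Over all tested genes the Pearson value was -0.07 and the rank correlation (Spearman) -0.20, which was not computed for the members. The genes share 2 arrays and their dyes, so the values are descriptions.

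**Figure D4:**
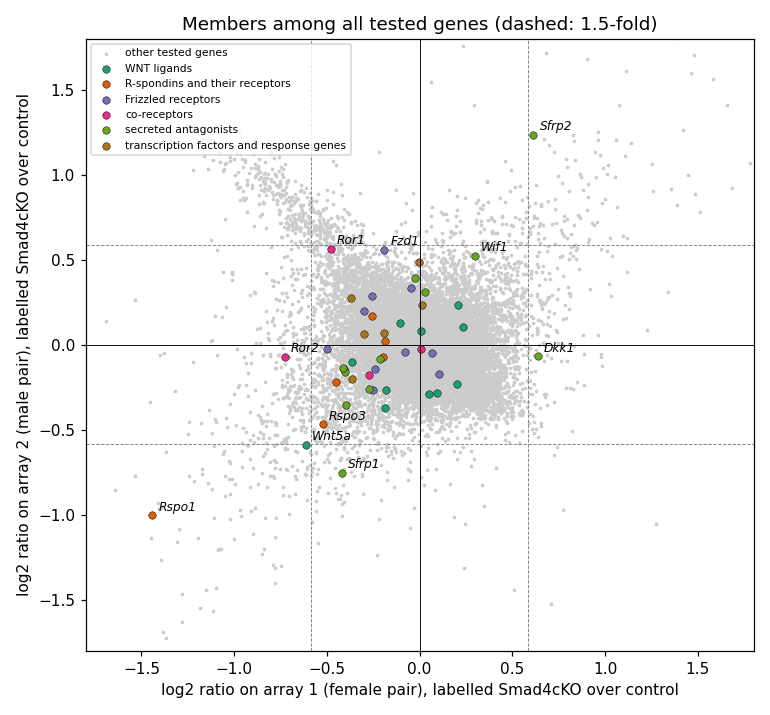
Log2 ratio on array 2 against array 1 for all tested genes (grey) and the 49 members (coloured by role), with dashed lines at 1.5-fold; 16 genes lie beyond the axis limits of 1.8. Rspo1 and Wnt5a lie at the lower left and Sfrp2 at the upper right, while Ror1 (-0.48 and 0.56) and Fzd1 (-0.19 and 0.56) lie at the upper left, where red was the brighter dye on both arrays.

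The rest of the WNT pathway was described from lists of genes that are not members. For these lists and the marker lists below, the background was 19.9% of all tested genes brighter and 19.8% dimmer on both arrays. Of 30 genes for WNT secretion and the cytoplasmic pathway, 30 were tested, 7 were brighter and 5 dimmer on both arrays, and 0 passed limma or the 1.5-fold rule. Limma's unadjusted p was under 0.05 for 1 of them, the corepressor gene Tle2 (0.41 and 0.32). Their median was -0.0012. Next in order were Tle1 (0.18 and 0.21) and Bcl9l (0.19 and 0.14). Ctnnb1, which encodes beta-catenin and was chosen after its value was seen, gave -0.37 and 0.23.

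Other secreted and membrane modulators had 22 tested members, 5 brighter and 6 dimmer on both arrays. Sostdc1, for an inhibitor that binds BMPs and LRP6, gave 0.55 and 0.29, and Tpbg, for a membrane inhibitor of WNT signalling, gave 0.39 and 0.37. Cthrc1, whose product favours the non-canonical branch, gave -0.67 and -0.28. The planar polarity and non-canonical list had 24 tested genes, 1 brighter and 5 dimmer on both arrays. Of these Nfatc1, a calcium-responsive transcription factor gene, was dimmer by the 1.5-fold rule (-0.82 and -0.61), while its second probe gave -0.87 and -0.21. Celsr3, for a planar polarity cadherin that is also prominent in neurons, gave -0.73 and -0.31, and Fuz -0.09 and -0.12.

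Of 20 tested WNT-responsive genes outside the members, 8 were brighter and 3 dimmer on both arrays, with a median of 0.05. Id2 was brighter by the 1.5-fold rule (0.68 and 1.72), and it is also a BMP response gene. Bmp4 gave -1.04 and -0.43, and Tcf21 0.92 and 0.33. In these 3 lists too, limma called 0 genes. Unadjusted p was under 0.05 for 3 brighter and 1 dimmer modulators, 0 and 2 polarity genes, and 3 and 2 responsive genes.

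Beside the dimmer members, markers of nerve cells were mostly dimmer too, as were some of the kidney. Of 18 neuronal, glial and neural crest markers, all tested, 15 were dimmer on both arrays and 1 brighter, and their median was -0.51 (array 1, -0.80; array 2, -0.27). Their summed processed signal was 13731 in the channel labelled Smad4cKO and 21042 in the labelled control on array 1, and 15937 and 19522 on array 2. A sum of this kind is weighted to the brightest probes of its list and is not a level of a cell type. The neurofilament-type genes Prph (-1.03 and -0.69), Nefm (-1.03 and -0.68) and Nefl (-1.06 and -0.64) led that list. Of 15 tested nephric and kidney markers, which include Wnt11, 7 were dimmer, 2 brighter and 6 of differing sign, led by Gdnf (-1.75 and -2.14), Wt1 (-1.14 and -0.81) and Sall1 (-0.61 and -0.76). Their summed signal was 65614 against 71830 on array 1 and 76964 against 80571 on array 2, and only Nphs1, for a podocyte protein, was not bright enough. Rspo1 is best known from the gonad, and of 7 tested gonad markers 1 was dimmer and 1 brighter on both arrays, with a median of 0.01. Gata4, Amh, Hsd3b1, Insl3 and Stra8 of that list were not tested, and the summed signal of the others was 14417.5 against 13762 and 17659 against 18714. Most of that sum came from Foxl2 (12886 against 12185 and 15866 against 17035). The 4 tested mesothelium markers had 1 member dimmer on both arrays, which was Wt1, and summed signals of 32137 against 26066 and 28338 against 36143. Most of these sums came from Krt19 (28195 against 19070 and 23855 against 29305), while Wt1 had 2452 against 5445 and 2920 against 5218. Smooth muscle markers were all brighter (8 of 8, median 1.44), with sums of 42925 against 27362.5 and 61840 against 27719. The other lists had smaller medians. Of 12 ureteric mesenchyme markers, the tissue where Cre is active, 4 were brighter and 3 dimmer on both arrays, with a median of 0.02. Aldh1a2, for an enzyme of retinoic acid synthesis, was the 1 of them past 1.5-fold (-0.75 and -1.30), and the summed signals were 135075 against 148192 and 152757 against 180142. Of 14 urothelial markers, 5 were brighter and 1 dimmer (median 0.05), with sums of 99894 against 82094 and 101945 against 107653. Of 9 endothelial markers, 5 were brighter and 0 dimmer (median 0.15), with sums of 41719 against 36942 and 44542 against 41760. Of 9 macrophage markers, 3 were brighter and 0 dimmer (median 0.18), with sums of 15353 against 11949 and 16893 against 17754. Of 7 tested Wolffian and Mullerian duct markers, 2 were brighter and 2 dimmer. The part of these cell types in the ratios of Rspo1, Wnt5a, Rspo3, Sfrp1 and Sfrp2 was not tested.

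Promoters were read from RefSeq (build GRCm38.p6) as the 250 bases before each start, for 40 of the 60 members. They were searched on both strands for the TCF and LEF motif (CTTTGAT or CTTTGAA), the SMAD palindrome GTCTAGAC and the GC-rich SMAD motif GGCGCC; no motif contains another. The TCF and LEF motif was found for 4 of 40 member genes (Dkk1, Sp5, Wnt11 and Wnt5b), or 10%, against 8.63% of all genes. The palindrome was found for 0 of 40, against 0.200% of all genes. GGCGCC was found for 13 of 40, or 32.5%, against 10.8% of all genes. The median GC content of member promoters was 65.2%, against 52.4% over all promoters, and its part in that share was not tested. Rspo1 and Sfrp2, the members that passed the 1.5-fold rule in opposite directions and have an entry, are shown with motif matches in capitals. Rspo1 (chr4:124986180-124986429, plus strand) has 1 match, a GGCGCC that begins 9 bases before the start, and Sfrp2 (chr3:83766071-83766320, plus strand) has 0.
Rspo1 promoter: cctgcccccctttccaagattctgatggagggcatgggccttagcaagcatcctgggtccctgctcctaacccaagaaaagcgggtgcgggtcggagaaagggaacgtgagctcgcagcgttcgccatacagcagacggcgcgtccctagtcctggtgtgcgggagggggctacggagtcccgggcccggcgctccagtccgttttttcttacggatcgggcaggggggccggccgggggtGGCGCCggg
Sfrp2 promoter: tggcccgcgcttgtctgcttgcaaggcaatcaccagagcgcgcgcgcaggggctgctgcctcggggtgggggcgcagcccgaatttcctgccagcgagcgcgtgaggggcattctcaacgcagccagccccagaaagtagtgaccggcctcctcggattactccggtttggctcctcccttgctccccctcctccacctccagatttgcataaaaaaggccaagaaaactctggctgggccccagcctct

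**Figure D5:**
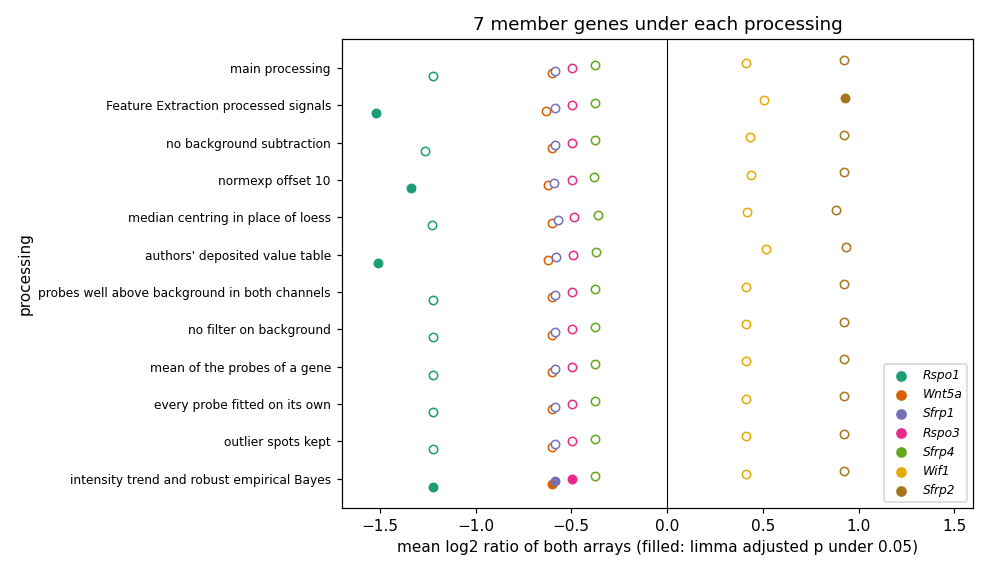
Mean log2 ratio (horizontal axis) of the 7 members with an unadjusted limma p under 0.05, under each of 12 ways of processing (rows), filled where limma's adjusted p was under 0.05. Each gene stays on its side of 0 in every row. Settings on filters, probes, outlier spots or variance cannot move these points. Rspo1 ranges from -1.52 to -1.22 and is filled in 4 of the rows.

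The ratios of the 7 members with the lowest p kept their sign under each of the 11 other ways of processing. Each has 1 probe and 0 outlier spots, so settings on filters, probe averaging, outlier spots or variance could not change its ratio. The genes were also picked by p from these same data. Rspo1 ranged from -1.52 to -1.22 and passed limma in 4 of them, with adjusted p from 1.04e-12 to 1. Sfrp2 ranged from 0.88 to 0.94 and passed in 1, and Wnt5a from -0.63 to -0.60 and passed in 1. Rspo3 (-0.50 to -0.49) and Sfrp1 (-0.59 to -0.57) each passed in 1, the intensity trend with robust variance. For the 8 members with 2 tested probes, the ratios of both probes on an array differed by 0.16 in the median and by at most 0.44, with the same sign of the mean for 8 of 8. The sign on a single array agreed less often. It differed between the probes on 1 array for Fzd7, Lrp6, Nkd1, Nkd2 and Tcf7. For Fzd2 it differed on both arrays, with 0.10 and -0.17 from the brighter probe and -0.19 and 0.13 from the other. Rspo1, Wnt5a and Sfrp2 rest on 1 probe each.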

How the data were processed

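Per the submitters' processing notes, the scans were read with Agilent Feature Extraction (version 10.7.3.1). Each deposited scanner file has, per its header, mean and background intensity values of both channels and processed signals that were background-subtracted and dye-normalised. It also has a deposited log10 ratio with its error and p-value. The authors' deposited value table has a signed fold (a score here, as it can be negative); its direction was found against processed signals, and the sources used here do not give how it was made.

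Mean signals were corrected with normexp (offset 50) and loess within arrays (limma 3.58.1, R 4.3.3), with 1377 control spots at weight 0 and outlier spots left out. Of all probes, 26670 were bright enough to test, and the brightest stood for its gene (21238 genes). Limma (lmFit, eBayes) tested the mean of 2 ratios against 0, with 1 residual and 4.89 prior degrees of freedom, so the SE is mostly pooled over genes. The script was tested on simulated data. The number of arrays limits the precision. Gene names are those of the files; 0 member probes had another RefSeq symbol.

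Members and lists were chosen with earlier results of these data known. Channel values are given for members past an unadjusted p of 0.05 or 1.5-fold in either or opposite directions. They are also given for the 2 per role with the largest smaller ratio among those of 1 sign, and for Wnt7b, Wnt9b, Fzd1, Axin2 and Lef1. Up to 3 non-members per list were named in the same order. Channel values of other members (Lgr5, Dkk1, Rspo2) were chosen after they were seen.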

Additional observations from a re-analysis of the deposited data

Results flagged for a closer look

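The female pair on array 1 and the male pair on array 2 gave ratios of opposite sign for 20 of 49 tested members, and this difference was not tested, since each sex has 1 array and the dyes were exchanged with the sex. Across all tested genes 60.3% had opposite signs. Of the 20, 13 were above 0 on array 2, where red held the labelled Smad4cKO, and 7 below. Over all 49 members, signs aside, 37 (75.5%) had a higher ratio on array 2 than on array 1, against 48.2% of all tested genes. The log2 ratio on array 2 minus that on array 1 was 1.04 for Ror1, 0.75 for Fzd1, 0.65 for Axin2 and 0.54 for Fzd10. It was 0.50 for Fzd3, 0.49 for Nkd1, 0.42 for Rnf43 and 0.42 for Dkk3. It was 0.38 for Fzd9, 0.36 for Nkd2, 0.27 for Sp5, 0.24 for Wnt6 and 0.21 for Znrf3. From processed signals, Dkk1 and Znrf3 did not change sign between the arrays. Neither did the second probes of Nkd1 (0.03 and 0.50) and Nkd2 (-0.37 and -0.04), and the second Fzd2 probe changed sign the other way (-0.19 and 0.13). The difference was negative for Dkk1 (-0.70), Wnt1 (-0.43), Wnt9b (-0.38) and Wnt5b (-0.34). It was also negative for Fzd2 (-0.27), Fzd6 (-0.11) and Lrp5 (-0.035).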

How the results depend on the processing

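The count of 0 members past limma became 2 from processed signals, 1 with normexp offset 10, 1 from the authors' deposited table and 4 when limma used an intensity trend with robust variance. Over all tested genes the calls rose from 1 to 306, 66, 149 and 705 in the same order. The 2 members dimmer by the 1.5-fold rule became 1 from processed signals, from the authors' deposited table and with median centring, and the 1 brighter member became 0 with median centring. Fzd1 then lay past 1.5-fold in opposite directions (-0.68 and 1.03). On 1 array alone, without the other replicate, 1 to 2 members were brighter and 3 dimmer by 1.5-fold, and the member median ranged from -0.20 to -0.066. The 6 other settings (no background subtraction, both channels above background, no filter, probes averaged, probes apart, outlier spots kept) left these counts within 1.5 times. Of the mean ratios of named genes under other settings, 179 kept their sign and side of the threshold and 8 passed it. Some of these settings cannot change the ratio of a gene with 1 probe. The limma test is already paired, since each array is the ratio of 1 mutant and 1 control RNA, and no further pairing was added. Axin2, Rspo2 and Znrf3 rest on dim probes.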
